A study of Mus musculus with 3 samples.

Results

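Synaptic adhesion genes were taken from marker lists of lateral septum nuclei of the mouse by their symbols, as the listed genes whose symbols begin with the name of 1 of 22 adhesion genes or gene families. Within the lists no value was used to choose them, but a gene had to be among the 50 of a cluster to enter. Of 1039 different genes in the 3 deposited tables of cluster markers, 29 were members, with 115 of the 2750 listings. Nuclei came from lateral septum punches of 8 naïve adult male C57BL/6J littermates aged 3 months, pooled and sorted by fluorescence before 3 droplet libraries were made. The libraries form 1 group with no treatment or genotype compared, so values can be compared between clusters of nuclei and not between conditions. Pooling leaves no values per mouse, and prefrontal cortex, striatum and the medial and triangular septum next to the punches can be present, per the labels' protocols.

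The products of these genes are the membrane and secreted proteins that hold the presynaptic and postsynaptic sides of a synapse together and help to specify which neurons connect. Neurexins sit on the presynaptic membrane and bind neuroligins, LRRTM proteins and the secreted cerebellins, C1q-like proteins and neurexophilins. Teneurins bind latrophilins, IL1RAPL and SLITRK proteins bind receptor tyrosine phosphatases, and contactins, IgLON proteins and other members of the immunoglobulin superfamily bind within their own families or to receptors on the facing cell. The lateral septum is a forebrain region of mainly GABAergic neurons that receives input from the hippocampus and projects to the hypothalamus.

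A table lists 50 genes per cluster in ascending order of p, and 20 member listings have an adjusted p given as 0, among which the order of listing shows no difference in p. Each listing has a log2 fold change, cluster over remaining nuclei, and the detection of the gene, meaning the percentage of nuclei with its transcript, for the cluster and for the remaining nuclei. The tables cover all nuclei in 25 broad clusters, GABA nuclei in 22 subclusters and nuclei labelled Sst in 8 subclusters. All 3 tables come from the same libraries and pooled mice, so a gene listed in several tables is not thereby replicated. Numbers of nuclei and depth per nucleus are unknown, and no value has a replicate error. Clusters were made from the same expression values, so each listed difference is a description and not a test. A gene that is absent from a list can still differ there. Of the lists of cell type markers, the lateral septum GABAergic list had 7 of its 11 genes listed in at least 1 table, and 0 of the microglial, endothelial and ependymal markers were listed. A cluster is called "like" a cell type where at least 3 of its markers were listed, members not counted. Glia-like were broad clusters 8 (astrocytes, 6 of 9 markers), 9 (oligodendrocytes, 9 of 9) and 20 (oligodendrocyte precursors, 7 of 7). Cortical excitatory neuron-like were broad clusters 13 (3 of 10), 17 (3 of 10) and 23 (4 of 10), names that rest on few markers. Striatal medium spiny neuron-like were broad cluster 14 (9 of 11) and GABA subcluster 13 (8 of 11). Interneuron-like were broad cluster 16 (6 of 12), GABA subclusters 17 (4 of 12) and 19 (7 of 12) and Sst subcluster 6 (5 of 12). GABA subcluster 20 and Sst subcluster 1 are so called for lateral septum GABAergic neurons, with Nts, Sst and Meis2 listed as 3 of 11 markers, although both also listed Chodl from the interneuron list. Broad cluster 18 held all 4 genes of a list of Slc17a6 neurons.

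The promoters of 5 members that were listed together for the same clusters in all 3 tables are shown first. Il1rapl2 and Cntn5 shared broad cluster 3, GABA subcluster 3 and Sst subcluster 0. Nxph1, Nxph2 and Cntnap2 shared the interneuron-like broad cluster 16, GABA subcluster 17 and Sst subcluster 6. Broad cluster 16 shared 26 other listed genes with GABA subcluster 17. It shared 29 with GABA subcluster 19, which listed none of Nxph1, Nxph2 and Cntnap2. Cntnap4 was listed for the same 3 clusters as Nxph2, and had no RefSeq promoter. Cntnap5a and Cntnap5b were listed with Nxph1 for broad cluster 1, GABA subcluster 4 and Sst subcluster 3. Cntnap5a had no RefSeq promoter, and the window of Cntnap5b is not shown. Each window runs from 250 bases before to 50 bases after a RefSeq start on GRCm38.p6, 5′ to 3′ on the gene's strand. Capitals mark each CG dinucleotide.
Il1rapl2, chrX:137570504-137570803, plus strand: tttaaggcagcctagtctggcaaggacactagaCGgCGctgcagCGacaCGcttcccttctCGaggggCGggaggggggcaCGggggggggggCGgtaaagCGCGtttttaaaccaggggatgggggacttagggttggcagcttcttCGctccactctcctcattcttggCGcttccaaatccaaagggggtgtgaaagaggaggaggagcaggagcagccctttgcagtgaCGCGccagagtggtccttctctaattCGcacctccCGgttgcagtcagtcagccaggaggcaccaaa
Cntn5, chr9:10904677-10904976, minus strand: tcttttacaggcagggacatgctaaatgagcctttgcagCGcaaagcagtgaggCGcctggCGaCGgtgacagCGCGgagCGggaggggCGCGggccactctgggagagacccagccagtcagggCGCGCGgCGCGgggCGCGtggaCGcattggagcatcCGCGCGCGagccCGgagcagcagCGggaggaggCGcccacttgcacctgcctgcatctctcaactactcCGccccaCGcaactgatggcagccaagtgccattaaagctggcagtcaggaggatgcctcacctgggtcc
Nxph1, chr6:8949769-8950068, plus strand: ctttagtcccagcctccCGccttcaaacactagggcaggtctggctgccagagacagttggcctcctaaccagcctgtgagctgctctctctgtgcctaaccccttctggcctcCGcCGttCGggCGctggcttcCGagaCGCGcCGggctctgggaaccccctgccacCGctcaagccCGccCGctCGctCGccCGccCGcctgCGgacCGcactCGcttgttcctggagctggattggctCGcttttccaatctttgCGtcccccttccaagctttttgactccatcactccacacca
Nxph2, chr2:23320996-23321295, plus strand: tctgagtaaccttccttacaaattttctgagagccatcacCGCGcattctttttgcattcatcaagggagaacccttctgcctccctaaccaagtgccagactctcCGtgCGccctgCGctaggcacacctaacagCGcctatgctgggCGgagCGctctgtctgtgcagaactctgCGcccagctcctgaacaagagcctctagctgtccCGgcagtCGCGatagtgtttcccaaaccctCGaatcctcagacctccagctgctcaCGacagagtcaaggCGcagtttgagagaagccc
Cntnap2, chr6:45059811-45060110, plus strand: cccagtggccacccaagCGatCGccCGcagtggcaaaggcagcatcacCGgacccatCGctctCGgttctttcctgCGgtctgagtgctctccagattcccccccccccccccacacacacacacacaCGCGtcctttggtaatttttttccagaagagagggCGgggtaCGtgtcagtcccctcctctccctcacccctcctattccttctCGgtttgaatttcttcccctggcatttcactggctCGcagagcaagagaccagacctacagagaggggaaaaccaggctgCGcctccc
The windows shown held 16 CG dinucleotides in Il1rapl2, 26 in Cntn5, 21 in Nxph1, 15 in Nxph2 and 14 in Cntnap2. Where a gene had several windows, the one nearest to its start in GENCODE M21 is shown. A second window of Cntnap2, 2185 kb inside the gene, held 3 CG, and a second one of Cntn5 held 26. The RefSeq start used for Nxph1 lay 1.6 kb inside the gene. A RefSeq promoter was found by symbol for 21 of the 29 members, over 28 windows, with a median of 11.5 CG, against 14 in 1049 windows of the other listed genes and 7 in all 32851 windows. A CG occurred in 92.9% of member windows, in 99.4% of the windows of other listed genes and in 94.6% of all windows. The motif TATAAA, searched on both strands, was in 2 of the 28 member windows (7.14%), those of Cntnap3 and Tenm1, in 9.15% of the windows of other listed genes and in 13.6% of all windows. A RefSeq start can lie inside the gene. Windows of Cntn3, Cntn4, Cntnap2, Lsamp, Ntm, Tenm1 and Tenm3 lay 108.4 to 2185 kb inside it, and the member median and shares include them. Of such windows, 2, of Cntn3 and Tenm1, held 0 CG.

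**Figure D1:**
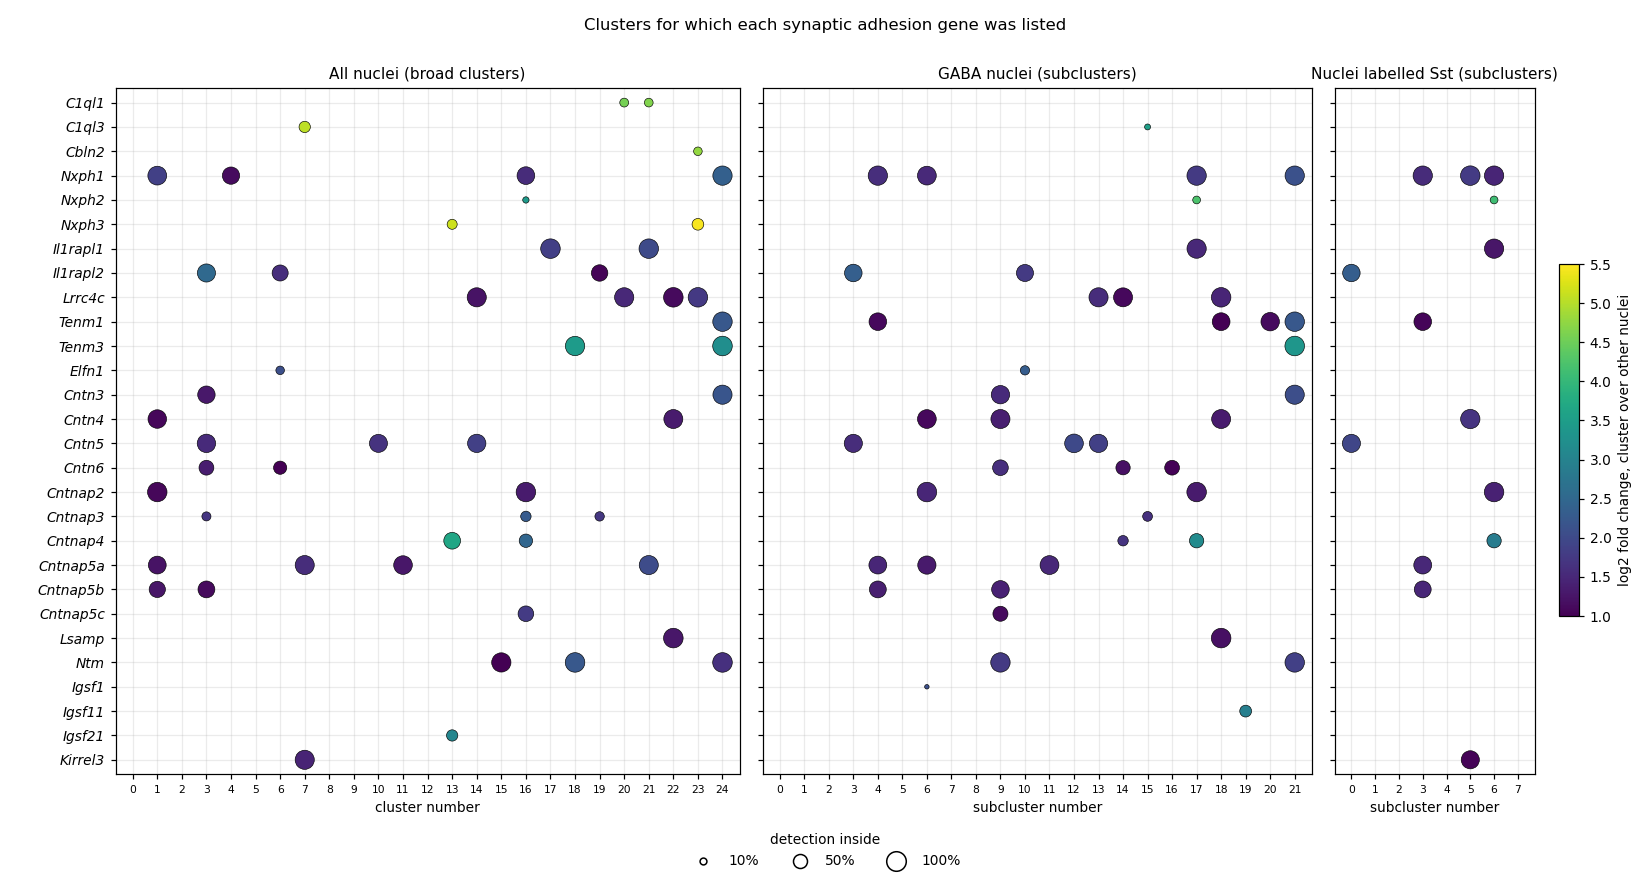
Clusters (horizontal axis, by number) for which 28 of the 29 synaptic adhesion genes (vertical axis) was listed in the 3 deposited tables; colour is the log2 fold change of the cluster over the other nuclei, and the area of a circle grows with the percentage of nuclei inside in which the gene was detected. Nxph1 was listed for 4 broad clusters, 4 GABA subclusters and 3 Sst subclusters, and Nxph3 had the highest log2 fold change, 5.45.

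Members numbered 27 for broad clusters, 24 for GABA subclusters and 12 for Sst subclusters, and 11 were in all 3 tables. As a background, 4.05% of the 20574 genes over which the authors adjusted p were listed for a broad cluster, 3.52% of 20044 for a GABA subcluster and 1.95% of 18109 for an Sst subcluster. Members were 3.24%, 3.4% and 3.4% of the different genes of the broad, GABA and Sst tables. Between families the numbers were uneven. Of the protein-coding mouse genes with matching symbols in GENCODE M21, 29 of 92 were listed, with 4.39% of all 21991 protein-coding genes listed in any table. These included 10 of 13 contactin and contactin-associated genes, 3 of 4 neurexophilins, 2 of 2 Il1rapl genes, 2 of 4 teneurins, 2 of 4 C1q-like genes and 1 of 4 cerebellins. Of the neuroligins, LRRTM, SLITRK, LRFN and FLRT genes and the latrophilins, 0 of 3, 0 of 4, 0 of 6, 0 of 5, 0 of 3 and 0 of 4 were listed. Opcml and Negr1 of the IgLON family, both DSCAM genes, Lrrc4 and Lrrc4b were not listed, and 8 further symbols that begin with Lrrc4, such as Lrrc40, belong to other genes and were not listed. A gene detected at a similar level in the clusters compared would not enter such lists, whatever its level.

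Members differed in how widely they were detected. In 67 of the 115 listings, from 14 members, the gene was detected in at least 50% of the nuclei outside the cluster. Over the tables, 31 of 55 broad listings (56.4%), 27 of 46 GABA listings (58.7%) and 9 of 14 Sst listings (64.3%) were of this kind, against 13.6%, 12.2% and 14.5% of all listings. The median detection outside was 52.4% for members and 13.55% for all listings of the broad table. It was 54.1% and 14.25% for GABA listings, and 58.3% and 12.2% for Sst listings. At the other end, 19 listings from 10 members had detection outside under 10%. These 10 were C1ql1, C1ql3, Cbln2, Nxph2, Nxph3, Elfn1, Cntnap3, Igsf1, Igsf11 and Igsf21. Their listings had log2 fold changes of 1.63 to 5.45 with a median of 3.44, against 2.74 for all 1172 listings under 10%. The 67 widely detected listings had log2 fold changes of 1.00 to 3.45 with a median of 1.5, against 1.35 for all 362 such listings. The 29 member listings between had a median of 1.61, against 1.54 for all 1216 listings between. Within each range of detection outside, the member median was thus the higher one, unlike over whole tables. Over whole tables the member medians of log2 fold change were 1.70 (broad), 1.55 (GABA) and 1.52 (Sst), against 2.11, 1.67 and 1.74 for all listings. A log2 fold change of at least 2 was reached by 21 of 55 broad member listings (38.2%), 11 of 46 GABA listings (23.9%) and 3 of 14 Sst listings (21.4%), and by 53.5%, 38.5% and 39.8% of all listings.

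**Figure D2:**
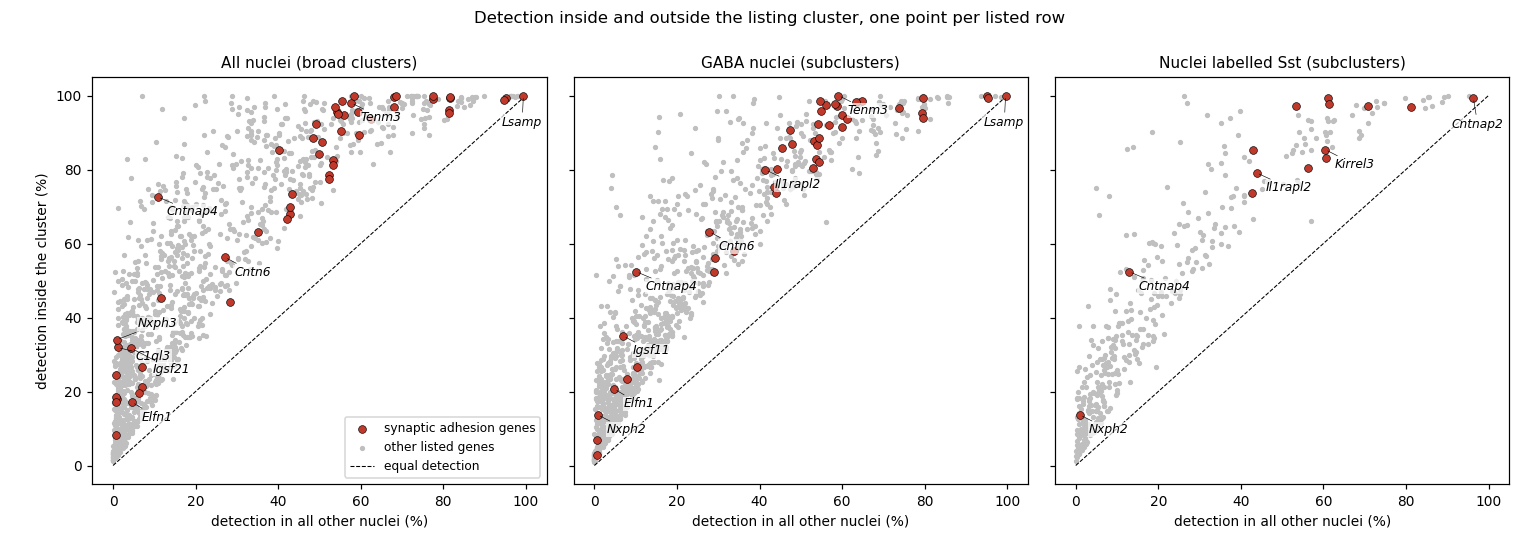
Detection inside the listing cluster (vertical axis, % of nuclei) against detection in all other nuclei of the table (horizontal axis, %), with one point per listing; red points are 28 of the 29 synaptic adhesion genes, grey points other listed genes, and the dashed line marks equal detection. Red points gather at the upper right, up to Lsamp at 100% inside and 99.6% outside, with a second set near the left edge.

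Genomic span went with this difference. Members had a median span of 551 kb in GENCODE M21, from 4.73 kb (Nxph3) to 2245 kb (Cntnap2), against 125.2 kb for 991 other listed genes and 17.3 kb for all protein-coding genes. The 14 widely detected members had a median of 995 kb, with Nxph1 the shortest at 301 kb. The 10 members under 10% outside had a median of 41.0 kb, and the longest of them was Igsf21 at 219.9 kb. Across the 29 members Spearman's rho between span and the highest detection outside was 0.89, and across the 991 other listed genes 0.67. These genes share libraries and depth and are not replicates. In nuclear RNA unspliced transcripts of long genes can be captured at internal sites, and the part of span in detection was not tested.

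**Figure D3:**
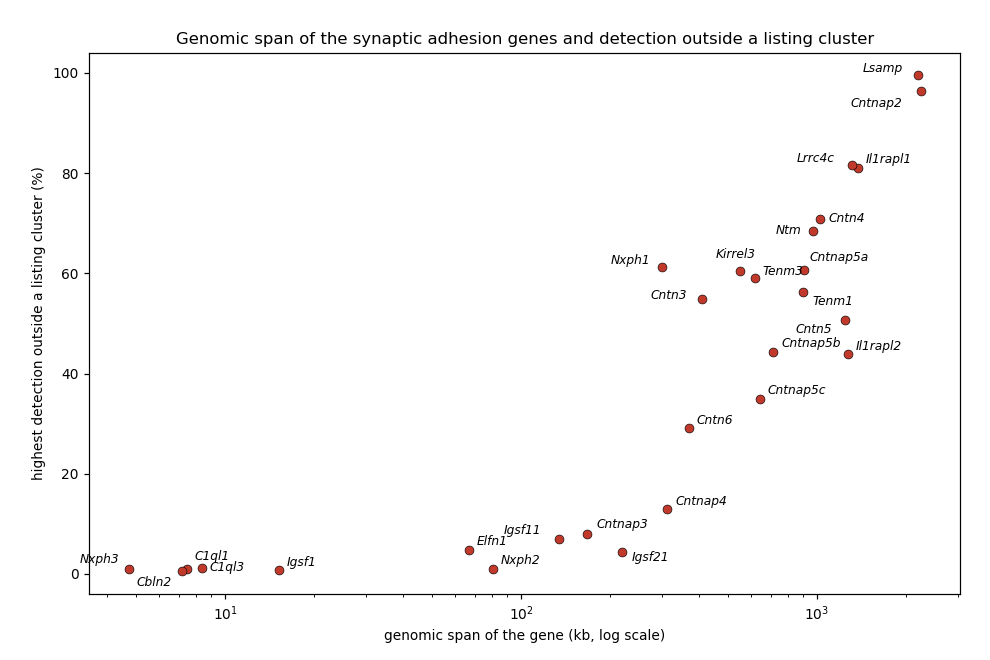
Highest detection outside a listing cluster over the 3 tables (vertical axis, % of nuclei) against the genomic span of each synaptic adhesion gene (horizontal axis, kb, log scale), with one point for each of 28 of the 29 genes. The 10 genes under 10% span 4.73 to 219.9 kb, and the 13 plotted genes at 50% or more span 301 to 2245 kb.

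Cluster sizes, as shares of the nuclei of a table, were solved from the detection values, because a gene's overall detection must come out the same from every cluster that lists it. From the size follows how large a part of the nuclei positive for a gene, those in which it was detected, lies in a cluster. Bounds given with these parts cover the rounding of the deposited percentages, and not the error of the cluster sizes or differences between mice. In brackets after a log2 fold change, detection inside the cluster stands against detection outside it.

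Neurexophilins are secreted ligands of alpha-neurexins, and 3 of the 4 were listed with different distributions. Nxph1 was a widely detected gene. The authors' deposited table gave it a log2 fold change in broad cluster 24 of 2.37, with detection in 97% against 53.8% of the other nuclei. The log2 fold changes were 1.85 (92.2% against 49.1%) in broad cluster 1, 1.56 (81.2% against 53.3%) in the interneuron-like broad cluster 16 and 1.14 (77.4% against 52.4%) in broad cluster 4 in the authors' deposited table. In GABA nuclei it had a log2 fold change of 2.12 (97.1% against 58.7%) in subcluster 21, 1.76 (97.6% against 58.2%) in subcluster 17, 1.58 (97.4% against 56%) in subcluster 4 and 1.52 (92% against 56.8%) in subcluster 6 in the authors' deposited table. Nxph1 was thus in nearly all nuclei of these 4 subclusters, and in more than 50% of the GABA nuclei outside each. In Sst nuclei the log2 fold changes were 1.78 (99.4% against 61%) in subcluster 5, 1.55 (97.2% against 53.4%) in subcluster 3 and 1.47 (97.6% against 61.3%) in subcluster 6 in the authors' deposited table. Overall Nxph1 was detected in 53.9% of all nuclei, 58.8% of GABA nuclei and 63.2% of Sst nuclei. The 3 Sst subclusters that listed it held 51.1% of its positive Sst nuclei from 33.1% of the Sst nuclei, and detection in the other Sst subclusters together was 46.1%. It stood first by p in Sst subcluster 3, and in broad cluster 1 it was among several genes tied at a p of 0. Its position is chromosome 6 from 8948431 to 9249032 on the plus strand (GRCm38, GENCODE M21).

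Nxph2 was rare and was listed for an interneuron-like cluster in each table. Its log2 fold change was 3.44 (8.3% against 0.8%) in broad cluster 16, 4.22 (13.7% against 0.8%) in GABA subcluster 17 and 4.11 (13.7% against 1%) in Sst subcluster 6 in the authors' deposited table. GABA subcluster 17 held 21.5% (bounds 20.4% to 22.6%) of the Nxph2-positive GABA nuclei from 1.57% of the GABA nuclei, and Sst subcluster 6 held 42.9% from 5.19% of the Sst nuclei. These 2 clusters shared 37 of their other listed genes, so their values are not independent. Nxph1 and Nxph2 were thus listed together there, one in nearly all nuclei of the subcluster and the other in 13.7% of them. The position of Nxph2 is chromosome 2 from 23321246 to 23401973 on the plus strand.

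Nxph3 was listed for clusters of the cortical excitatory-like kind. The authors' deposited table gave it a log2 fold change of 5.45 (34% against 0.9%) in broad cluster 23, the highest log2 fold change of any member, and 5.16 (24.4% against 0.7%) in broad cluster 13. Together these clusters held about 70.8% of the Nxph3-positive nuclei from 3.18% of all nuclei, and detection in the remaining clusters was about 0.4%. Rounding bounds were 24.9% to 27.0% for the part in cluster 23 and 42.9% to 46.5% for the part in cluster 13. Cortical tissue can be present in the punches, and the location of these nuclei was not tested. The position of Nxph3 is chromosome 11 from 95509845 to 95514570 on the minus strand.

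The secreted C1q-domain genes were rare. C1ql3, whose product binds the adhesion receptor BAI3, had the largest log2 fold change of the 50 genes in broad cluster 7 and again in GABA subcluster 15. The log2 fold changes were 5.06 (31.9% against 1.1%) in broad cluster 7, a cluster that listed the vesicular glutamate transporter Slc17a7, and 3.52 (7% against 0.7%) in GABA subcluster 15 in the authors' deposited table. Broad cluster 7 held 60.6% (bounds 59.5% to 61.8%) of the C1ql3-positive nuclei from 5.05% of all nuclei, the highest part of any member in the broad table. GABA subcluster 15 held 18.0% of the positive GABA nuclei from 2.15% of the GABA nuclei. C1ql1, known as a climbing fibre ligand of BAI3 in the cerebellum, had a log2 fold change of 4.64 (17.9% against 0.9%) in broad cluster 21, which listed Slc17a6, and 4.56 (18.5% against 0.8%) in the oligodendrocyte precursor-like broad cluster 20 in the authors' deposited table. A glial and a neuronal cluster thus had C1ql1 at nearly the same detection, and together they held about 48.3% of its positive nuclei from 2.93% of all nuclei. Rounding bounds were 21.8% to 23.8% for the part in cluster 21 and 24.5% to 26.9% for the part in cluster 20. Cbln2, a cerebellin that bridges neurexins to delta glutamate receptors, had a log2 fold change of 4.78 (17.2% against 0.6%) in broad cluster 23 in the authors' deposited table, where Nxph3 was also listed.

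Il1rapl1 and Il1rapl2 encode receptor-like proteins related to the interleukin-1 receptor, and the human IL1RAPL1 gene is linked to intellectual disability. Il1rapl2 had its largest log2 fold change in each table for clusters that match by their other genes. Broad cluster 3 shared 22 of these with GABA subcluster 3, and GABA subcluster 3 shared 28 with Sst subcluster 0. Broad cluster 3 also shared 19 with GABA subcluster 9, which did not list Il1rapl2. The largest log2 fold change of Il1rapl2 was 2.53 (85.3% against 40.1%) in broad cluster 3, 2.34 (79.9% against 41.4%) in GABA subcluster 3 and 2.32 (79.1% against 43.8%) in Sst subcluster 0 in the authors' deposited table. It was also listed for broad cluster 6 at a log2 fold change of 1.59 (66.5% against 42.1%), broad cluster 19 at a log2 fold change of 1.05 (69.9% against 42.9%) and GABA subcluster 10 at a log2 fold change of 1.77 (75.4% against 43.4%) in the authors' deposited table. GABA subcluster 3 held 15.6% of the positive GABA nuclei from 8.74% of the GABA nuclei, and Sst subcluster 0 held 41.2% of the positive Sst nuclei from 27.95%. In broad cluster 3 its detection differed by 45.2 percentage points, and its p was tied at 0 with that of Cntn5. The position of Il1rapl2 is chromosome X from 137570608 to 138846946 on the plus strand.

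Il1rapl1 was listed for other clusters than its paralogue in each table. The log2 fold changes were 2.02 (99% against 77.5%) in broad cluster 21, 1.83 (99.8% against 77.4%) in broad cluster 17, 1.5 (96.7% against 73.8%) in GABA subcluster 17 and 1.25 (97% against 81.1%) in Sst subcluster 6 in the authors' deposited table. Overall it was detected in 77.8% of all nuclei, against 43.4% for Il1rapl2. A receptor phosphatase that binds IL1RAPL1, Ptprd, was listed for broad cluster 17 too, at a log2 fold change of 1.32 (100% against 73.6%) in the authors' deposited table. Ptprd was not listed for the other 3 clusters that listed Il1rapl1, and it was listed without Il1rapl1 for broad clusters 18, 13, 23, 15 and 7 and GABA subcluster 9.

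Lrrc4c encodes the netrin-G ligand NGL-1. It was listed for 4 broad clusters, neuronal and glia-like. Log2 fold changes were 1.74 (99.2% against 81.6%) in the cortical excitatory-like cluster 23, 1.5 (96.2% against 81.5%) in the oligodendrocyte precursor-like cluster 20, 1.23 (95.4% against 81.5%) in the medium spiny neuron-like cluster 14 and 1.12 (99.7% against 81.6%) in cluster 22 in the authors' deposited table. The GABA table repeated the medium spiny neuron-like kind with a log2 fold change of 1.57 (95.3% against 79.4%) in subcluster 13, and had a log2 fold change of 1.46 (99.4% against 79.6%) in subcluster 18 and 1.09 (93.8% against 79.5%) in subcluster 14 in the authors' deposited table. Subcluster 13 shared 41 other listed genes with broad cluster 14, and subcluster 18 shared 43 with broad cluster 22. The listings of these pairs are not independent, which holds for Cntn4 and Lsamp in broad cluster 22 and subcluster 18 too. Lrrc4c was detected in 81.8% of all nuclei. Its partner Ntng1, which encodes netrin-G1, was listed for broad clusters 21, 18 and 5, GABA subclusters 5 and 20 and Sst subcluster 1, none of them a cluster that listed Lrrc4c. The highest of these was 3.62 (99.3% against 32.5%) in broad cluster 21 in the authors' deposited table.

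Teneurins are large homophilic receptors that also bind latrophilins across the synapse. Tenm3, known for matching hippocampal axons with their targets, had a log2 fold change of 3.45 (98% against 57.7%) in broad cluster 18, 3.21 (100% against 58.3%) in broad cluster 24 and 3.37 (100% against 59.1%) in GABA subcluster 21 in the authors' deposited table. Those were the largest log2 fold changes among widely detected members, in clusters where 98% to 100% of nuclei carried the transcript. Tenm1 was listed for 4 GABA subclusters, with a log2 fold change of 2.23 (98.6% against 54.6%) in subcluster 21, 1.13 (88.6% against 54.5%) in subcluster 20, 1.09 (80.4% against 52.9%) in subcluster 4 and 1.01 (81.9% against 54.4%) in subcluster 18 in the authors' deposited table. It also had a log2 fold change of 2.22 (98.5% against 55.5%) in broad cluster 24 and 1.05 (80.4% against 56.2%) in Sst subcluster 3 in the authors' deposited table. In subcluster 18 Tenm1 held place 50 of 50 by p, the last of that list, as Nxph2 did in broad cluster 16 and Sst subcluster 6. Tenm1 is at chromosome X from 42527866 to 43429126 on the minus strand, and Tenm3 is at chromosome 8 from 48227682 to 48843951 on the minus strand.

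GABA subcluster 21 and broad cluster 24, which listed Spp1 and Six3, also listed the same 5 members, Tenm3, Tenm1, Nxph1, Cntn3 and Ntm. They shared 44 of their other listed genes and held 0.35% of GABA nuclei and 0.24% of all nuclei, so the lists are not independent. Each of the 5 was detected in 95.5% to 100% of the nuclei inside. Because the cluster is small, it held between 0.533% (Ntm) and 0.632% (Tenm1) of the positive GABA nuclei.

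Elfn1, a postsynaptic protein that recruits the glutamate receptor mGluR7 to the terminal facing it, was listed for 1 cluster in each of 2 tables. The log2 fold change was 2.08 (17.1% against 4.6%) in broad cluster 6 and 2.31 (20.7% against 4.8%) in GABA subcluster 10 in the authors' deposited table. Broad cluster 6 held 17.1% of the Elfn1-positive nuclei from 5.25% of all nuclei, and GABA subcluster 10 held 16.2% of the positive GABA nuclei from 4.28% of the GABA nuclei. Grm7, the gene of mGluR7, was listed for the same clusters, at a log2 fold change of 1.33 (97.4% against 86.5%) in broad cluster 6 and 1.62 (100% against 85.4%) in GABA subcluster 10 in the authors' deposited table. Grm7 was listed as well for broad cluster 22, GABA subcluster 18 and Sst subcluster 4, without Elfn1. The 2 clusters shared 27 of their other listed genes.

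Contactins are immunoglobulin proteins anchored to the membrane by a lipid, and 4 of the 6 were listed. Cntn5 was listed for 3 clusters in each of the larger tables. Its GABA log2 fold changes were 2.00 (90.6% against 47.4%) in subcluster 12, 1.85 (86.8% against 47.8%) in the medium spiny neuron-like subcluster 13 and 1.57 (85.7% against 45.4%) in subcluster 3 in the authors' deposited table. The broad ones were 1.85 (87.3% against 50.6%) in the medium spiny neuron-like cluster 14, 1.67 (84.3% against 50%) in cluster 10 and 1.53 (88.4% against 48.5%) in cluster 3 in the authors' deposited table. Sst subcluster 0 had a log2 fold change of 1.93 (85.3% against 43%) in the authors' deposited table, with Cntn5 first by p, while in GABA subcluster 3 its p was tied at 0 with that of Il1rapl2. That Sst subcluster held 43.5% of the Cntn5-positive Sst nuclei from 27.95% of the nuclei, a part close to the one it held for Il1rapl2. In GABA nuclei the 3 listing subclusters held 26.8% of the positive nuclei from 15.1%, and detection elsewhere was 42.2%. The position of Cntn5 is chromosome 9 from 9660891 to 10904775 on the minus strand.

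Cntn3, Cntn4 and Cntn6 met in GABA subcluster 9. Log2 fold changes there were 1.54 (87.7% against 53.2%) for Cntn3, 1.38 (94.7% against 60.1%) for Cntn4 and 1.61 (63.2% against 27.8%) for Cntn6 in the authors' deposited table. The subcluster also listed Ntm, Cntnap5b and Cntnap5c, and with 6 members it had the most of any GABA subcluster. Of these 6, Cntn3, Cntn4 and Ntm were detected in more than 50% of the GABA nuclei outside. Cntn3 was listed besides for subcluster 21 at a log2 fold change of 2.07 (95.7% against 54.8%), for broad cluster 24 at a log2 fold change of 2.19 (95.5% against 54.2%) and for broad cluster 3 at a log2 fold change of 1.30 (78.6% against 52.4%) in the authors' deposited table. Cntn4 had a log2 fold change of 1.33 (93.6% against 61.3%) in GABA subcluster 18, 1.09 (91.5% against 60%) in GABA subcluster 6, 1.33 (93.7% against 62.6%) in broad cluster 22, 1.08 (89.4% against 59.7%) in broad cluster 1 and 1.68 (97.2% against 70.9%) in Sst subcluster 5 in the authors' deposited table. All listings of Cntn4 had at least 89.4% of nuclei positive inside. Cntn6 was the least detected of the 4, in 29.6% of GABA nuclei, and had a log2 fold change of 1.18 (52.2% against 29%) in subcluster 14, 1.02 (56% against 29.1%) in subcluster 16, 1.36 (56.3% against 27.1%) in broad cluster 3 and 1.00 (44.1% against 28.4%) in broad cluster 6 in the authors' deposited table. The order of overall detection in GABA nuclei was Cntn4 (61.8%), Cntn3 (54.9%), Cntn5 (48.9%) and Cntn6.

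Contactin-associated proteins are neurexin-like membrane proteins. Cntnap2, which encodes Caspr2 and helps to cluster potassium channels along axons, was detected in 95.4% of GABA nuclei. Its log2 fold changes were 1.33 (99.3% against 95.2%) in broad cluster 16, 1.08 (98.9% against 94.8%) in broad cluster 1, 1.48 (99.8% against 95.2%) in GABA subcluster 6, 1.32 (99.4% against 95.3%) in GABA subcluster 17 and 1.41 (99.4% against 96.3%) in Sst subcluster 6 in the authors' deposited table. Detection inside and outside differed by under 5 percentage points in each of these listings, so the log2 fold changes of 1.08 to 1.48 lie between sets of nuclei that nearly all carry the transcript. The position of Cntnap2 is chromosome 6 from 45059357 to 47304213 on the plus strand.

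Cntnap4, known from presynaptic terminals of interneurons, had the largest difference in detection of any member. It reached 61.8 percentage points in the cortical excitatory-like broad cluster 13, with a log2 fold change of 3.67 (72.6% against 10.8%) in the authors' deposited table. Log2 fold changes for interneuron-like clusters of the 3 tables were 2.48 (45.4% against 11.5%) in broad cluster 16, 3.15 (52.4% against 10.1%) in GABA subcluster 17 and 2.87 (52.4% against 12.9%) in Sst subcluster 6 in the authors' deposited table. GABA subcluster 14, without a cell type name, had a log2 fold change of 1.68 (26.7% against 10.3%) in the authors' deposited table. Excitatory-like and interneuron-like clusters thus both listed the gene, and broad clusters 13 and 16 together held 20.9% of its positive nuclei from 4.26%. Cntnap3 had a log2 fold change of 2.27 (26.6% against 6.9%) in broad cluster 16, 1.72 (21.2% against 7%) in broad cluster 19, 1.70 (19.5% against 6.3%) in broad cluster 3 and 1.63 (23.3% against 7.9%) in GABA subcluster 15 in the authors' deposited table.

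The 3 Cntnap5 paralogues, whose synaptic role is less well known, were listed for partly shared clusters. Cntnap5a had a log2 fold change of 2.03 (94.8% against 55.9%) in broad cluster 21, 1.57 (94.9% against 54.4%) in broad cluster 7, 1.27 (90.3% against 55.3%) in broad cluster 11 and 1.22 (82.5% against 53.2%) in broad cluster 1 in the authors' deposited table. In GABA nuclei it had a log2 fold change of 1.5 (92.4% against 54.2%) in subcluster 11, 1.48 (82.8% against 53.8%) in subcluster 4 and 1.31 (86.5% against 54%) in subcluster 6, and in Sst nuclei 1.5 (83.2% against 60.7%) in subcluster 3 in the authors' deposited table. Cntnap5b joined it in GABA subcluster 4 at a log2 fold change of 1.37 (73.6% against 44.1%), Sst subcluster 3 at a log2 fold change of 1.48 (73.7% against 42.7%) and broad cluster 1 at a log2 fold change of 1.25 (68% against 42.8%) in the authors' deposited table. It stood without Cntnap5a in GABA subcluster 9 at a log2 fold change of 1.41 (80.1% against 44.3%) and broad cluster 3 at a log2 fold change of 1.11 (73.5% against 43.4%) in the authors' deposited table. Cntnap5c had a log2 fold change of 1.78 (63% against 35%) in broad cluster 16 and 1.13 (58% against 33.8%) in GABA subcluster 9 in the authors' deposited table. Overall detection in GABA nuclei was 55.8% for Cntnap5a, 46.1% for Cntnap5b and 35.0% for Cntnap5c. The sources used here do not say how reads shared by the paralogues were counted.

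Nxph1, Cntnap5a, Cntnap5b and Tenm1 formed a shared set. All 4 were listed for GABA subcluster 4 and for Sst subcluster 3, which had 31 of their other listed genes in common. Nxph1, Cntnap5a and Cntnap5b were listed for broad cluster 1. That cluster shared 19 other listed genes with GABA subcluster 4 and 17 with GABA subcluster 6. GABA subcluster 6 listed Nxph1 and Cntnap5a but not Cntnap5b or Tenm1. Sst subcluster 3 held 34.3% of the Nxph1-positive, 33.2% of the Cntnap5b-positive, 29.1% of the Tenm1-positive and 28.3% of the Cntnap5a-positive Sst nuclei, from 22.32% of the nuclei. Car10, which encodes a neurexin ligand and is no member, was listed for GABA subcluster 4 at a log2 fold change of 1.97 (73.2% against 31.6%) and Sst subcluster 3 at a log2 fold change of 2.06 (73.9% against 31.2%) in the authors' deposited table. Its highest log2 fold change was 2.87 (94.3% against 36.5%) in broad cluster 21 in the authors' deposited table, which listed Cntnap5a of the 4, and it was also listed for broad clusters 15 and 1 and GABA subcluster 6.

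IgLON proteins are lipid-anchored immunoglobulin proteins of axons and dendrites. Lsamp had a log2 fold change of 1.28 (100% against 99.4%) in broad cluster 22 and 1.18 (100% against 99.6%) in GABA subcluster 18 in the authors' deposited table, so the difference is one of level. Since Lsamp was missing in 0.59% of all nuclei and the astrocyte-like and oligodendrocyte-like clusters held 8.08% of nuclei, it must have been detected in at least about 92.7% of those glia-like nuclei. By the same sum the lowest possible value there was 41.4% for Cntnap2. Free RNA in droplets can add to such values, and its part was not tested. Ntm, the neurotrimin gene, had a log2 fold change of 2.22 (99.6% against 68%) in broad cluster 18, 1.62 (100% against 68.5%) in broad cluster 24 and 1.00 (96.8% against 68%) in broad cluster 15 in the authors' deposited table. Its GABA log2 fold changes were 1.86 (98.6% against 64.9%) in subcluster 21 and 1.77 (98.3% against 63.3%) in subcluster 9 in the authors' deposited table. Tenm3 and Ntm were listed together for both broad clusters 18 and 24.

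Of the remaining immunoglobulin genes, Igsf21, a neurexin partner, had a log2 fold change of 3.06 (31.7% against 4.4%) in the cortical excitatory-like broad cluster 13 in the authors' deposited table. Igsf11, which binds postsynaptic scaffold proteins, had a log2 fold change of 2.93 (35% against 7%) in the interneuron-like GABA subcluster 19 in the authors' deposited table. Igsf1, known for its role in the pituitary, was detected in few nuclei, with a log2 fold change of 2.11 (2.9% against 0.7%) in GABA subcluster 6 in the authors' deposited table. Kirrel3, a homophilic protein of hippocampal synapses, had a log2 fold change of 1.44 (95.5% against 59.3%) in broad cluster 7 and 1.05 (85.4% against 60.4%) in Sst subcluster 5 in the authors' deposited table.

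**Figure D4:**
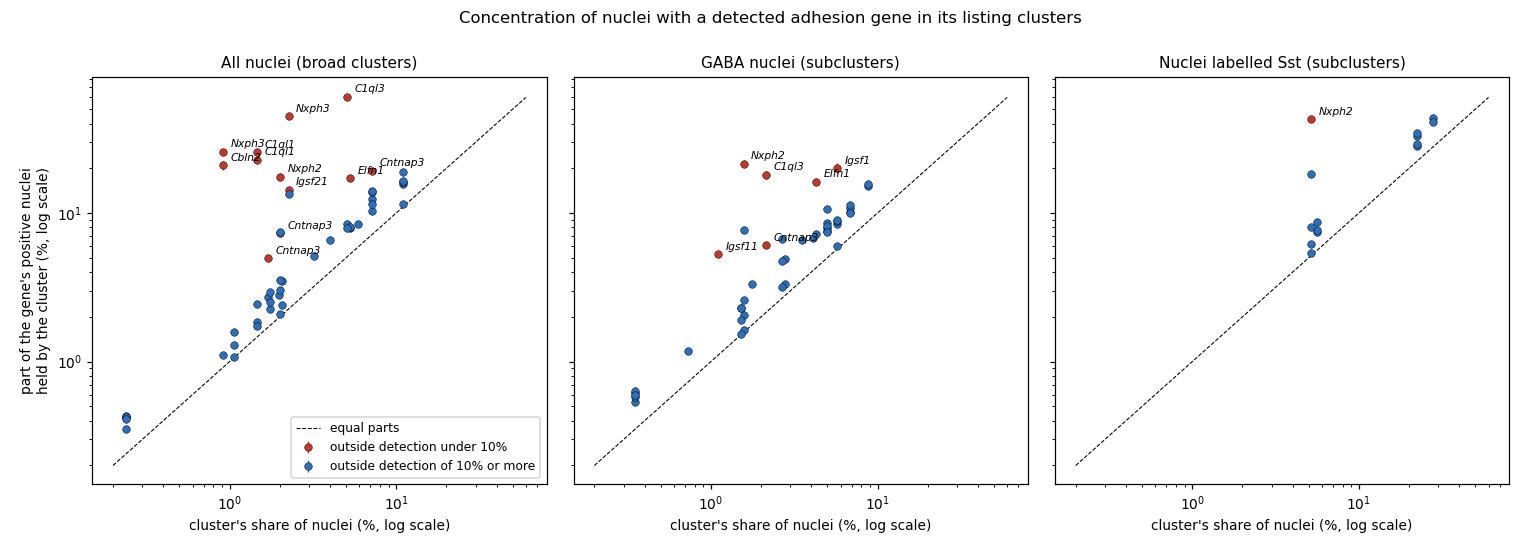
Part of the nuclei positive for a gene that a listing cluster held (vertical axis, %, log scale) against the cluster's share of nuclei (horizontal axis, %, log scale), with one point per listing of 28 of the 29 genes; bars are the bounds from rounding, red points have detection outside under 10%, blue points 10% or more, and the dashed line marks equal parts. Red points lie 2.69 to 28.3 times above the line, and blue points 1.00 to 5.95 times.

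The part held by a cluster divided by its share of nuclei separated the narrow from the wide members. It was 2.69 to 28.3 in the 19 listings with detection outside under 10%, where the highest was Nxph3 in broad cluster 23. In the 67 listings at 50% or more it was 1.00 to 1.80. The 29 listings between, from 7 members, had 1.47 to 5.95, with Cntnap4 in broad cluster 13 the highest. Detection enters both this ratio and the grouping, so the order is a description.

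Clusters differed in how many members they listed. Broad clusters 3 and 16 and GABA subcluster 9 had 6 each, GABA subclusters 6, 17 and 21, Sst subcluster 6 and broad clusters 1 and 24 had 5, with a median over clusters of 2 (broad and GABA) and 1 (Sst). Broad cluster 3 listed Il1rapl2, Cntnap3, Cntn5, Cntn6, Cntn3 and Cntnap5b, and broad cluster 16 Nxph2, Cntnap4, Cntnap3, Cntnap5c, Nxph1 and Cntnap2. The GABA table spread the members of broad cluster 3 other than Cntnap3 over subclusters 3 (Cntn5 and Il1rapl2) and 9 (Cntn3, Cntn6 and Cntnap5b). These subclusters shared 22 and 19 other listed genes with broad cluster 3. Among GABA nuclei Cntnap3 was listed for subcluster 15 alone. No member was listed for 6 broad clusters with 39.8% of all nuclei, 6 GABA subclusters with 48% of GABA nuclei and 4 Sst subclusters with 39.1% of Sst nuclei. The broad ones were 0, 2, 5 and 12 and the astrocyte-like 8 and oligodendrocyte-like 9, and the GABA ones were 0, 1, 2, 5, 7 and 8. Sst subclusters 1, 2, 4 and 7 listed none.

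Most members of the larger tables were listed for several clusters. Of the 27 broad members 9 were listed for 1 cluster (33.3%), of the 24 GABA members 11 (45.8%) and of the 12 Sst members 11 (91.7%), against 65.7%, 63.4% and 88.1% of all listed genes. No member was listed for more than 4 clusters of a table. Most often shared were Nxph1 with 4 broad and 4 GABA clusters, Cntnap5a and Lrrc4c with 4 broad clusters each and Tenm1 with 4 GABA subclusters. By the difference in detection in place of log2 fold change, the leading cluster was the same for 11 of 18 broad members listed for several clusters, for 10 of 13 GABA members and for 0 of 1 Sst member, Nxph1.

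Binding partners that are no members were listed as well. Of 51 such genes, 18 were broad markers, 17 GABA markers and 8 Sst markers, with 22 in any table. Clusters that listed a member held 31 of 38 broad partner listings (81.6%, with 76% of clusters), 23 of 31 GABA partner listings (74.2%, with 72.7%) and 3 of 8 Sst partner listings (37.5%, with 50%). The first 2 shares were near the shares of clusters, and the Sst one rests on 8 listings. The receptor phosphatase gene Ptprd was listed for 6 broad clusters, among them the 2 that listed Nxph3, at a log2 fold change of 2.49 (99.8% against 73.4%) in broad cluster 13 and 2.31 (100% against 73.8%) in broad cluster 23 in the authors' deposited table. Clstn2, which encodes the adhesion protein calsyntenin-2, was listed for broad cluster 24 at a log2 fold change of 1.74 (77.6% against 23.6%) and for GABA subcluster 21 at a log2 fold change of 2.53 (77.1% against 16.6%) in the authors' deposited table, beside the 5 members of that cluster. Clstn2 had higher broad values in cluster 17 at 2.61 (84.8% against 22.7%), cluster 18 at 2.52 (78% against 22.8%) and cluster 7 at 2.48 (80.7% against 20.7%) as log2 fold changes in the authors' deposited table, and it was also listed for broad cluster 15 and GABA subclusters 9, 6 and 12.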

How the data were processed

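Nuclear RNA of pooled lateral septum nuclei was measured in 3 libraries, which form 1 group. Per the submitters' processing notes, Seurat 4 and the mm10 build were used. Aligner, filters on nuclei, handling of doublets and free RNA, clustering settings and test: not given in the sources used here. Each of the 3 deposited tables gives, per the file headers, an average log2 fold change with a pseudocount that is not stated. Detection is a deposited fraction of nuclei with 3 decimals, shown in percent in the text. The deposited p-values are taken to be over nuclei, which are not independent animals, since no column gives libraries. They served here to give a gene's place in a list and for the threshold of 0.05 on adjusted p, which removed 0 listings. In each table the adjusted p was the raw p times a constant, taken as the number of genes tested.

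Members were the genes matching 22 symbol patterns. The values of 1 member are not reported here and not drawn, while counts and medians over the members include it. The members, gene lists and markers were chosen with earlier results of these data known. Shares of nuclei were solved by least squares from 286, 258 and 42 genes listed for 2 or more clusters of the broad, GABA and Sst tables. The residual was about 0.02 percentage points, and the shares summed to 100.03%, 100.76% and 100.1%. On simulated tables, the solution missed the true sizes by at most 0.07 (broad), 0.083 (GABA) and 0.182 (Sst) points. Those tables obeyed the same rule apart from rounding and had cluster sizes drawn at random. They check the method of solving and do not measure the error of the sizes in these data. Clusters of different tables were matched by shared genes, members left out. Spans came from GENCODE M21 on GRCm38, the assembly of mm10, and promoters from RefSeq on GRCm38.p6. Full values are given for the listings of largest log2 fold change per role group, for members listed for 4 or more clusters of a table and for members of all 3 tables; the other members follow so that each is accounted for. The partner genes named with values (Grm7, Ptprd, Ntng1, Car10 and Clstn2) were chosen after their values were seen. No test over samples could be made, no column gave values per library, and the depth is unknown, so no counting interval is given with any value. The alternatives were stricter limits on the listings, a narrower pattern and other solutions for the shares. Figures were drawn with matplotlib 3.10.9, and values computed with pandas 2.3.3, numpy 2.4.6 and scipy 1.17.1 under Python 3.11.15.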

Additional observations from a re-analysis of the deposited data

How the results depend on the processing

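No paired analysis was possible because the libraries form 1 group and the tables give no values per library, and leaving out a library was not run for the same reason. With listings of log2 fold change of at least 2, 17 broad, 11 GABA and 3 Sst members were left, 76.5%, 100% and 100% of them in 1 cluster, with medians of 3.06, 2.34 and 2.87. Requiring a detection difference of at least 25 points left 17, 13 and 7 members, and lowered the percentage in 1 cluster to 23.1% in the GABA table. Both limits leave fewer listings by construction. The other 32 of 45 recomputed values moved less than the limits used. For a count the limit was 1.5 times. For a percentage or median it was a 95% interval over members or their listings, which are not replicates, so staying inside it says little about stability. Other solutions for the shares moved the part of positive nuclei held by a cluster by at most 8.16% (broad), 5.04% (GABA) and 12.7% (Sst, solved from 5 genes) of its value. These moves often passed the rounding bounds: solved without the members, 24 of 55 broad, 22 of 46 GABA and 4 of 14 Sst parts stayed inside them, so the bounds leave out the error of the cluster sizes. By difference in detection, the leading cluster differed for C1ql1, Cntn5, Cntnap5a, Cntnap5b, Il1rapl1, Lrrc4c and Tenm3 (broad), for Lrrc4c, Ntm and Nxph1 (GABA) and for Nxph1 (Sst). Detection depends on depth, which is unknown, and a gene near complete detection can differ in level alone.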
